A study of Mus musculus with 9 samples.

Results

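The genes described here act at the G1/S transition of the cell cycle and at the DNA replication fork. They were fixed as a list of 39 gene symbols, and each gene was read from its probe set of highest mean signal. Of these 39 genes, 38 were on the array among 18193 genes with a probe set of their own, through 85 probe sets. Chaf1a was not analysed here. The brightest probe sets of E2f2 and Tyms had mean signals of 39 and 97.2, under the minimum of 100 required for testing, which left 36 genes among 10177 tested.

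Gene expression was measured on 9 Affymetrix mouse arrays from 2 spontaneously immortalised lines of embryonic fibroblasts, both taken from E13.5 embryos. The null line lacks Suv420h1, a histone H4 methyltransferase whose gene is now called Kmt5b, and was measured untransduced, with GFP, and reconstituted with a Suv420h1-GFP fusion. The wild-type line carried lentivirus for GFP, LacZ, full-length PREX2 (an exchange factor for the GTPase Rac), or PREX2 ending at a premature stop (K278*, E824* or Q1430*). For the comparisons, the untransduced and GFP arrays formed the null group (2 arrays) and the Suv420h1-GFP array stood alone (1). In the wild-type line, GFP and LacZ formed the control-vector group (2), the 3 premature stops the truncated group (3), and full-length PREX2 was a single array. Each genotype is represented by a single line, so genotype and line cannot be told apart. No construct was repeated within a line, and the labels name no separate cultures. The spread behind each p-value is therefore that between single arrays of different constructs, or of a construct and none. It holds construct differences together with any technical ones, and these cannot be told apart. Arrays within a group are not replicates of 1 condition. The labels give no growth state, density or cell-cycle measurement.

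In G1 the minichromosome maintenance complex, the replicative helicase, is loaded on DNA by Cdc6 and Cdt1. Cyclin E with its kinase, and the E2F transcription factors freed from the retinoblastoma protein, then start S phase, and E2F factors bind the promoters of many replication genes. Their transcripts are abundant in dividing fibroblasts and low in resting ones, so they are widely read as a sign of how many cells are cycling.

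Promoter sequences from RefSeq (GRCm38.p6), covering the 250 bases before an annotated start, were available for 32 of the 39 genes. They were searched on both strands for the E2F motifs TTTCCCGC, TTTGGCGC, TTTCGCGC and TTTGCCGC, whose matches can overlap. A match was present in 7 of the 32 genes (21.9%), against 4.16% of 8309 genes tested on the array and 2.16% of 27025 genes with a promoter. These counts and those that follow leave out the promoters of a chromosome that was not searched. The CCAAT box (CCAAT) was in 59.4% of the members and 41.1% of tested genes, and TTTGAA, the cell-cycle homology element, in 15.6% and 12.4%. The stretches below show E2F matches in promoters outside the annotated span of the gene, with 20 bases on each side up to the start and the matches in capitals. Mcm6 had 3 matches, of which 2 overlap (chr1:128359725-128359835, minus strand). Mcm5 had 2 overlapping matches (chr8:75109336-75109387, plus strand), and the match of Rfc3 began 10 bases before the start (chr5:151651209-151651238, minus strand).
Mcm6: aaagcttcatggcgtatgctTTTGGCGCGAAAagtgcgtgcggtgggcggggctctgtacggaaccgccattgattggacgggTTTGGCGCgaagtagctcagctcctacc
Mcm5: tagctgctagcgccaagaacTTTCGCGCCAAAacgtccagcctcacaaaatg
Rfc3: ccggaagtgacgtcgcacgcTTTCGCGCtc
The remaining matches were in Mcm7, Cdc6, Uhrf1 and Pola1. A match is a description of these letters and does not show binding.

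Median signals of the 9 arrays lay between 56.3 and 68.7. Kmt5b was checked first: its brightest probe set in the null group (442 and 432) lay within the range of the wild-type line (295 to 469.6). The next brightest Kmt5b probe set was higher in the null group (536 and 462) than on any wild-type-line array (221 to 338). Of 3 dimmer ones, the brightest read 8.85 untransduced, 17.3 with GFP, 150.3 after reconstitution and 118 to 182 in the wild-type line. The others read 101.5 and 79.4 in the null group against 102.6 to 153.4, and 52.5 and 57.3 against 45.6 to 79.9. The Kmt5b probe sets thus differ on the null label. The sources used here do not say which part of the transcript each reads. The Prex2 probe set of higher signal read 452 and 677 with the control vectors and 703 to 809 with PREX2 constructs, so LacZ (677) lay close to Q1430* (703). The other Prex2 probe set was dim, highest on LacZ (43.9) and lowest on E824* (9.24). Whether either probe set reads the introduced sequence was not tested. Of 16 fibroblast markers, 13 were at a signal of 100 or more on every array, and Thy1 was as low as 6.90 in the null line. Markers of other cell types were mixed. Cdh1, Krt18, Pecam1, Cdh5, Ptprc, Adgre1, Myod1, Myog, Adipoq and Sox2 stayed under 100 on all 9 arrays. Epcam, Eng, Csf1r, Lyz2 and Acta1 were at or above 100 on all 9, and Map2 (up to 1837), Fabp4 and Nes on 8. Krt8, Krt19, Kdr, Tek, Cd68, Des, Pparg and Tubb3 reached 100 on 1 to 7 arrays.

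The top places among the wild-type-line arrays were the same for every tested member, and the lower places were not. In all 36 tested genes the wild-type GFP array was the highest of the 6 wild-type-line arrays and K278* the second highest, an order held by 17.7% of all tested genes. The E824* array was the lowest of the 6 for 32 genes, against 21.1% of all tested genes. Over all 9 arrays, 34 genes were highest on the wild-type GFP array, against 20.7% of all genes, and 27 were lowest on E824*, against 13.8%. The other 2 genes, Mcm4 and Ccne2, were highest on the untransduced null array. The genes share their arrays and rise together in cycling cells, so these counts are not independent. In RNA from whole cultures, a larger share of cells in S phase and more transcript per cell cannot be told apart.

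**Figure D1:**
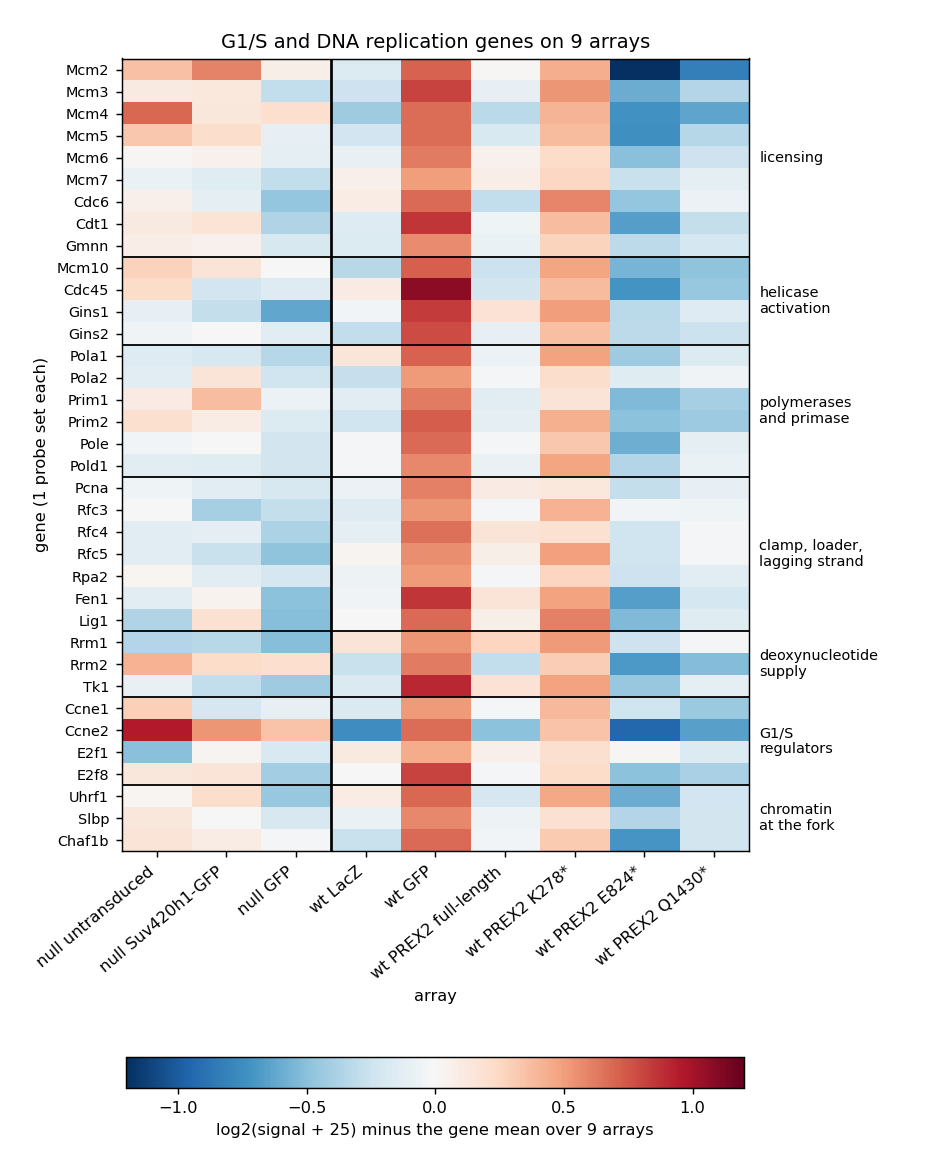
Heat map of the 36 tested genes (rows, grouped by role) on the 9 arrays (columns, null line left of the vertical line), coloured by log2(signal + 25) minus the mean of that gene over the 9 arrays. The wild-type GFP and K278* columns are above the gene mean throughout, and the E824* column is lowest of the wild-type line for 32 genes.

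The level of the genes on an array, taken as the median over the 36 genes of log2(signal + 25) minus the gene mean over the 9 arrays, ordered the arrays by expression of G1/S genes. It was 0.67 on wild-type GFP, 0.38 on K278*, 0.038 on the reconstituted null array, 0.021 on the untransduced null array, -0.028 on full-length PREX2, -0.10 on LacZ, -0.21 on null GFP, -0.22 on Q1430* and -0.48 on E824*. All tested genes together stayed between -0.021 and 0.02. Within groups the pooled SD of this level was 0.423, so each pair of neighbours in the order differed by less than the spread within groups. The order was identical with offsets of 5 or 100, without a filter on low signal and with a minimum of 200. After quantile normalization null GFP and Q1430* exchanged places, and with the mean over the probe sets of a gene so did these and the untransduced and reconstituted null arrays.

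GFP did not mark the same end of the order in both lines. In the null line the GFP array was the lowest of 3 for 31 of 36 genes, against 33.7% of all tested genes. The median difference between null GFP and untransduced was -0.28, and E2f1 was the 1 gene that was higher with GFP (0.32). Ccne2 was the only member more than 1.5-fold lower (-0.61) and 0 were more than 1.5-fold higher, against 1.32% and 1.36% of tested genes. GFP minus untransduced and GFP minus LacZ are different contrasts, each of 1 array against 1, and neither can be tested.

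The 2 control-vector arrays, which serve as 1 group in the comparisons, differed at every tested member. The GFP array was above LacZ for 36 of 36 genes, and for 4740 of all 10177 tested genes. The median log2 difference of the members was 0.77, against -0.035 over all tested genes. The difference was more than 1.5-fold for 30 genes, a size reached upwards by 8.64% of all tested genes. With 1 array each there is no test.

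Among the licensing genes, which load the helicase, Mcm4 read 6494 on GFP and 3026 on LacZ (log2 difference 1.10). Mcm3, also a helicase subunit, read 3976 on GFP and 1888 on LacZ (1.06). These 2 were the members of the helicase complex that differed most, whereas Mcm7 differed least, with 11910 on GFP and 8778 on LacZ (0.44). Over the 9 licensing genes the median was 0.87.

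Helicase activation had the highest median of the 7 roles, 1.01 over 4 genes. Gins2, a subunit of the GINS complex that joins the helicase, read 1923 on GFP and 899 on LacZ (1.08), and Mcm10, which helps to start unwinding, 681 and 318 (1.04). Cdc45, the third part of the active helicase, differed by 0.98 and Gins1 by 0.86. All 4 were more than 1.5-fold higher on GFP.

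Cyclin E2 (Ccne2), which with its kinase drives entry into S phase, differed most of all members, with 1044 on GFP and 376 on LacZ (1.42). Cyclin E1 (Ccne1) differed by 0.68 and E2f8, a repressor of E2F targets, by 0.81. E2f1, an activator of S-phase genes, differed least of all 36, with 511 on GFP and 401 on LacZ (0.33). The G1/S regulators thus held both ends of the range.

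The deoxynucleotide enzymes were also spread. Thymidine kinase (Tk1) read 3776 on GFP and 1779 on LacZ (1.08). The subunits of ribonucleotide reductase, which makes deoxynucleotides, gave unlike values: Rrm2 differed by 0.89, and Rrm1, with 5167 and 3992, by 0.37. Polymerases and primase had a median of 0.72 (0.56 for Pola1 to 0.97 for Prim2), and the clamp, clamp loader and lagging-strand genes 0.67 (0.52 for Rfc5 to 0.90 for Fen1). Pcna, the sliding clamp, read 19002 on GFP and 11935 on LacZ (0.67). Among chromatin factors of the fork, the histone chaperone subunit Chaf1b was at 0.95, the histone mRNA-binding protein Slbp at 0.65 and Uhrf1, which reads hemimethylated DNA, at 0.60.

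Other tested probe sets of 22 members, 29 in all, gave the same picture with exceptions. The GFP array was above LacZ in 28 of the 29, the exception being a dim Slbp probe set (mean signal 117, -0.37). The highest wild-type-line array was GFP in 21 and K278* in 6. A second E2f1 probe set differed between GFP and LacZ by 0.032 and was highest on Q1430*. Of the probe sets used, 10 were of the types that can read related transcripts (Mcm2, Mcm3, Mcm4, Mcm5, Mcm7, Gins2, Pold1, Fen1, Rrm2 and Ccne1).

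Other genes of the pathway, from lists given by function, were also compared between GFP and LacZ. The lists were chosen with earlier results of these data known, so their counts are descriptions and not independent support. Of 41 other replication factors (origin recognition, remaining polymerase and clamp-loader subunits, checkpoint and nucleotide enzymes), 40 were higher on GFP than on LacZ (median 0.53, 19 by more than 1.5-fold). Of 34 genes of G2 and mitosis, 34 were higher (median 0.49, 13 by more than 1.5-fold). Of 12 growth-arrest genes, 12 were lower (median -0.83, 9 by more than 1.5-fold), a decrease shown by 14.1% of all tested genes. Regulators upstream of G1/S, such as the D cyclins, their kinases and their inhibitors, were mixed, with 18 of 24 higher (median 0.29). Among all 10177 tested genes, 4740 were higher and 5437 lower, and 8.64% were higher by more than 1.5-fold.

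**Figure D2:**
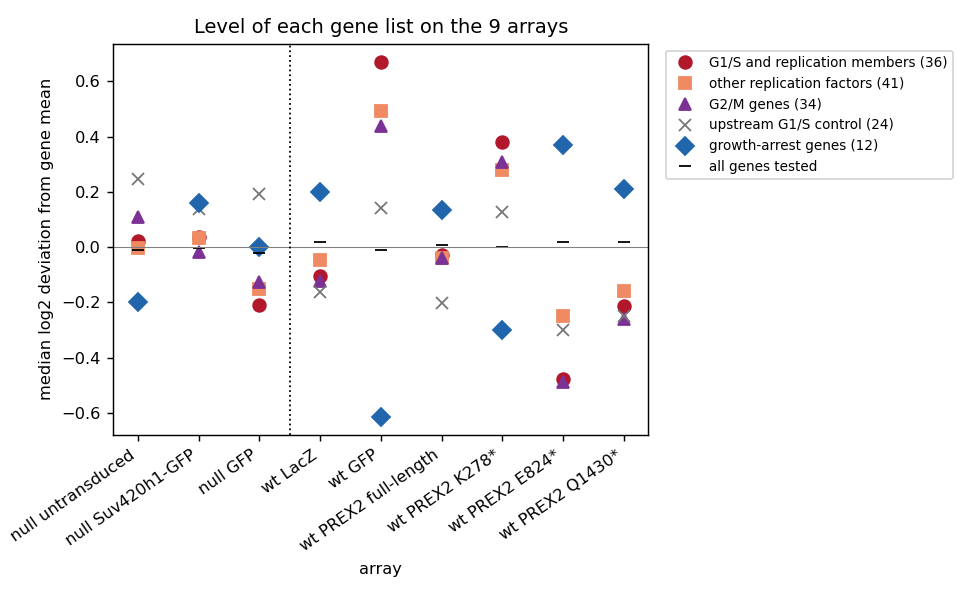
Level of 5 gene lists and of all tested genes on each array, as the median deviation in log2(signal + 25) from the gene mean over 9 arrays (null line left of the dotted line). The replication lists and the G2/M genes are highest on wild-type GFP and lowest on E824*. In the wild-type line growth-arrest genes run the other way, from -0.62 on wild-type GFP to 0.37 on E824*. In the null line they do not: the reconstituted array is highest for both the growth-arrest genes (0.161) and the members (0.038).

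Markers of cell identity also differed between these arrays. The summed signal of the 16 fibroblast markers was 182221 on wild-type GFP, 192457 on K278* and 250488 on LacZ, within 182221 to 256381 in the wild-type line and 174797 to 189915 in the null line. These sums are set mostly by the brightest markers. Gene by gene, 13 of the 16 were lower on GFP than on LacZ and 3 higher (median log2 difference -0.67). The decrease was more than 1.5-fold for 9, against 14.1% of all tested genes. It was largest for Dcn, with 962 on GFP and 21523 on LacZ (-4.45). Sums on GFP and LacZ were 385 and 713 for 5 endothelial, 702 and 1265 for 5 macrophage, 1043 and 2132 for 4 neural, 784 and 447 for 4 muscle, 587 and 595 for 5 epithelial and 443 and 461 for 3 adipocyte markers. The part of these differences in the order of the arrays was not tested.

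The comparison of PREX2 constructs with control vector asks whether the constructs change the fibroblasts' transcripts. No member was called higher or lower with truncated PREX2 (3 arrays against 2), where the background was 0.00983% of genes higher and 0% lower in limma at an adjusted p below 0.05; 0 members had an unadjusted p below 0.05. All 36 estimates were below 0, with a median of -0.39 against 0.0073 over all tested genes. The smallest p belonged to Cdc45 (log2 difference -0.85, SE 0.388), E2f8 (-0.63, SE 0.323) and Prim1 (-0.50, SE 0.270), all at an adjusted p of 0.844 in limma. Cdc45 read 559, 248 and 302 on K278*, E824* and Q1430* against 918 on GFP and 454 on LacZ, so the groups overlapped.

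This median rested on which control array was used. Without the GFP array it was -0.014, and without LacZ -0.81. Against LacZ alone the 3 truncations lay on both sides: the K278* array was higher for 36 of 36 genes (median 0.49), Q1430* was lower for 29 (median -0.15) and E824* lower for 34 (median -0.33). These differences share the LacZ array. Among all 10177 tested genes, 4738 were higher on K278*, 5161 lower on Q1430* and 4989 lower on E824*.

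On K278*, 10 members exceeded LacZ by more than 1.5-fold, against 3.03% of tested genes (lower, 0 members and 5.23% of genes). The largest differences were those of Ccne2 (828 against 376, 1.09), Mcm4 (5437 against 3026, 0.84) and Mcm10 (574 against 318, 0.81). On E824*, 4 members were more than 1.5-fold below LacZ, against 1.46% of tested genes (higher, 0 members and 1.86% of genes). These were Mcm2 (493 against 1036, -1.04), Cdc45 (248 against 454, -0.81), the maintenance-methylation factor Uhrf1 (844 against 1374, -0.69) and the flap nuclease Fen1 (1137 against 1752, -0.61). On Q1430*, Mcm2 (648, -0.66) was the only member past 1.5-fold, where 0.953% of genes were lower and 1.17% higher by that much. Mcm2 had the widest spread among the truncations, at 1582 on K278*.

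K278*, which ends in the N-terminal part of PREX2, exceeded the mean of E824* and Q1430* for 36 of 36 genes, and for 4745 of all 10177 tested genes. The median log2 difference of the members was 0.74, against -0.027 over all tested genes. The difference was more than 1.5-fold for 27 members, against 5.05% of tested genes (lower, 0 members and 7.09% of genes). It was largest for Mcm2 (1.45), Ccne2 (1.14) and Mcm4 (1.09) and smallest for E2f1 (0.27). It rests on 1 array and has no test.

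Full-length PREX2 (1 array against 2) gave 0 calls among members and among all genes (background 0% in each direction), and 0 members at an unadjusted p below 0.05. Its median difference from control vector was -0.29 with both control arrays, 0.092 without GFP and -0.69 without LacZ. The smallest p belonged to Cdc45 (-0.81, SE 0.521), the loader Cdc6 (-0.68, SE 0.449) and Uhrf1 (-0.59, SE 0.442), each at an adjusted p of 1 in limma. Against LacZ alone no member differed by 1.5-fold, where 0.825% of tested genes were higher and 1.98% lower by that much. The lowest was Cdc6, at 378 with full-length PREX2 and 501 with LacZ (-0.39), and the highest Tk1, at 2271 and 1779 (0.35).

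Truncated and full-length PREX2 (3 arrays against 1) gave 0 calls (background 0% in each direction), with 0 members at an unadjusted p below 0.05, and a median of -0.057, which was 0.10 without E824* and -0.31 without K278*. The smallest p belonged to Mcm2 (-0.55, SE 0.598), Cdc6 (0.31, SE 0.423) and Mcm6 (-0.23, SE 0.331), all at an adjusted p of 1 in limma. Mcm2 read 1178 with full-length PREX2, between K278* and the other truncations.

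Between the lines, few members differed beyond the spread between arrays. The null line against control vector (2 arrays each) gave 0 calls, where 10.2% of tested genes were higher and 10% lower in limma at an adjusted p below 0.05; 2 members had an unadjusted p below 0.05. The median of the 36 genes was -0.38 against -0.027 over all tested genes, and 33 estimates were below 0. It was -0.012 without the wild-type GFP array and -0.74 without LacZ, where Rfc4 (-0.92), E2f1 (-0.78), Pcna (-0.73) and Pola2 (-0.69) were called lower in limma. The smallest p with all arrays belonged to Rrm1 (-0.77, SE 0.250, adjusted p = 0.0694), E2f1 (-0.62, SE 0.202, adjusted p = 0.0705) and Mcm7 (-0.47, SE 0.206, adjusted p = 0.156), by limma.

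Taking all 3 null-line against all 6 wild-type-line arrays, 1 member was higher and 1 lower, where 20.7% of tested genes were higher and 23.2% lower in limma at an adjusted p below 0.05. The share of members called, 2.78% each way, was below this background. The spread within the wild-type line, set by the order of arrays described above, enters the error of every member in this comparison. The median was -0.10, against -0.024 over all tested genes, and 0.04 without wild-type GFP.

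Rrm1, the large subunit of ribonucleotide reductase, was lower in the null line. It read 2801 untransduced, 2832 reconstituted and 2507 with GFP, and in the wild-type line 5167 with GFP, 5114 with K278*, 4266 with full-length PREX2, 3992 with LacZ, 3537 with Q1430* and 2997 with E824*. The lines did not overlap. The log2 difference was -0.59 (SE 0.160, adjusted p = 0.012, limma), and -0.54 at the second tested probe set. It lost its call without the null GFP array (-0.54, adjusted p = 0.0559) and held it with each other array left out.

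Cyclin E2 was higher in the null line. It read 1271 untransduced, 947 reconstituted and 826 with GFP in the null line. In the wild-type line it read 376 with LacZ, 453 with full-length PREX2, 324 with E824* and 404 with Q1430*, but 1044 with GFP and 828 with K278*, so the lines overlapped through those 2 arrays. The log2 difference was 0.91 (SE 0.337, adjusted p = 0.0485, limma). This call was close to the threshold: it was kept when the wild-type GFP array (1.10) or K278* (1.04) was left out and lost when any 1 of the other 7 arrays was, with adjusted p from 0.0723 to 0.181. It was also lost with no signal filter (adjusted p = 0.074), after quantile normalization (0.0534), with no intensity trend (0.0569) and with the mean over probe sets (0.0508), all in limma.

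The other subunit of ribonucleotide reductase pointed the opposite way to Rrm1. Rrm2 read 10259 to 11867 in the null line, above LacZ (7380), full-length PREX2 (7267), Q1430* (6213) and E824* (5521) and below wild-type GFP (13736), with K278* at 10961. Its log2 difference was 0.42 (SE 0.249, adjusted p = 0.198, limma), which did not pass. Rfc5, a clamp-loader subunit, was the next smallest p (-0.44, SE 0.173, adjusted p = 0.062, limma).

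**Figure D3:**
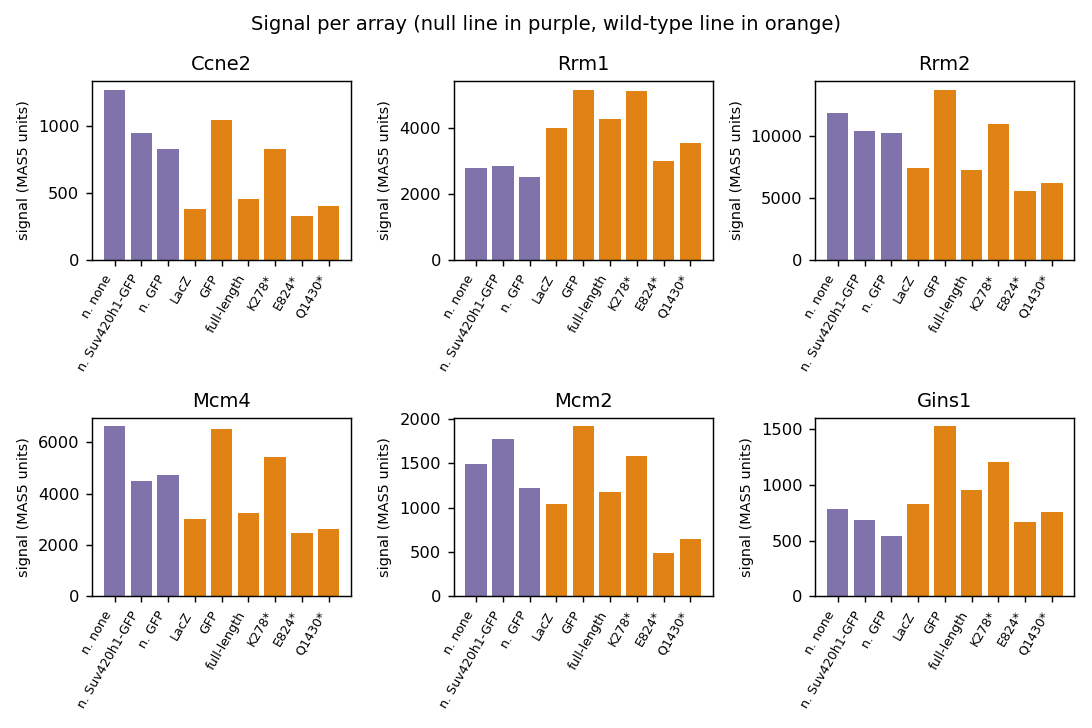
Signal of 6 members on each array, as bars from 0 in deposited units, with the null line in purple (n.) and the wild-type line in orange; "none" is untransduced and each bar is 1 array. Ccne2, Rrm2, Mcm4 and Mcm2 in the null line lie above LacZ, full-length PREX2, E824* and Q1430*, Rrm1 lies below all 6 wild-type-line arrays, and Gins1 (540 to 787) lies below LacZ and full-length PREX2.

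Leaving out both wild-type GFP and K278*, an alternative chosen after seeing that these arrays stood apart, changed the count. With 3 arrays against 4, 9 members were called higher and 1 lower, where 26.9% of tested genes were higher and 30.7% lower in limma at an adjusted p below 0.05. The count of 9 in 36 was thus near the background and the count of 1 below it. The median moved to 0.16. Wild-type GFP and K278* were the highest wild-type-line arrays for all 36 tested genes, so leaving them out had to raise every estimate. For Mcm4 the estimate went from 0.52 (SE 0.297) with all arrays to 0.87 (SE 0.135). The calls and adjusted p of this fit therefore follow in part from the choice of arrays and do not test a difference between the lines. The genes called higher were Ccne2 (1.32, SE 0.150), Mcm2 (0.88, SE 0.251), Mcm4 (0.87, SE 0.135), Rrm2 (0.72, SE 0.0997), Mcm10 (0.55), Mcm5 (0.52), the primase subunits Prim1 (0.43) and Prim2 (0.36), and Chaf1b (0.38). Adjusted p ranged from 2.13e-05 for Ccne2 to 0.0479 for Chaf1b in limma.

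Rrm1 was again the member called lower (-0.43, SE 0.110, adjusted p = 0.00594, limma). The same arrays gave the null line against LacZ, where Ccne2 (1.39), Mcm4 (0.88) and Rrm2 (0.58) were higher and Rrm1 (-0.59) lower. That fit has 1 control array, assumed to vary like the other groups, so its differences are given as sizes only. In the fit of 3 arrays against 4, the helicase subunits gave unlike results, a difference between subunits that was not tested: Mcm2, Mcm4 and Mcm5 were higher, Mcm3 (0.30) and Mcm6 (0.18) did not pass, and Mcm7 (-0.12) did not pass with an estimate below 0.

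**Figure D4:**
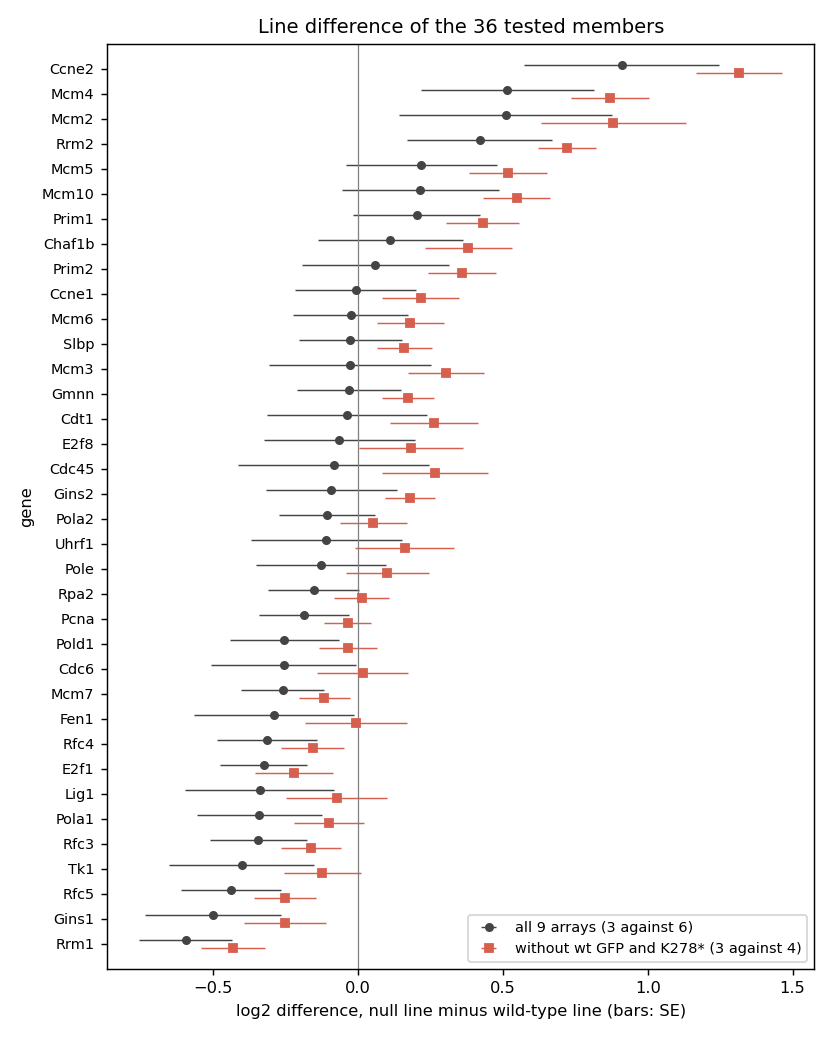
Log2 difference between the null and wild-type lines for the 36 tested genes, with all 9 arrays (grey circles, 3 against 6) and without wild-type GFP and K278* (red squares, 3 against 4); bars are the SE of the fit. Ccne2 is highest and Rrm1 lowest in both sets, and the bars are shorter without the 2 arrays.

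Second probe sets bore on these genes as follows. Over all 29 other tested probe sets the line difference had the same sign as the probe set used in 21. The second probe sets of Mcm2 (0.41) and Mcm4 (0.31) and both others of Rrm2 (0.32 and 0.24) had the same sign as the first. Ccne2 had a single probe set. The second probe set of E2f1 differed by -0.003, against -0.33 at the first.

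The lists around the members were read between the lines too. Of 41 other replication factors, 3 were higher (7.32%) and 8 lower (19.5%) over all 9 arrays, both below the 20.7% and 23.2% of all tested genes. Among these were Pole4 (-1.56) and the histone chaperone Nasp (-1.05), the origin-recognition subunit Orc1 (-1.02), and Dna2, a nuclease-helicase (0.66). Against control vector alone 0 were higher and 3 lower (7.32%), where 10.2% of all tested genes were higher and 10% lower; these were Pole4 (-1.68), Nasp (-1.30) and the polymerase delta subunit Pold3 (-0.91).

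Of 24 upstream regulators, 8 were higher (33.3%) and 4 lower (16.7%). The CDK4/6 inhibitors Cdkn2a and Cdkn2b had mean signals of 3839 and 1496 in the null line and 5.50 and 4.63 in the wild-type line, under the offset of 25 that sets the size of their log2 differences (5.67 for Cdkn2b). Both inhibitors passed the signal minimum only through the null line, so the 33.3% is not a result about the list. Cyclin D2 (Ccnd2) rose by 1.39 and the inhibitor Cdkn2c fell by 1.13. Of 34 G2/M genes 4 were higher and 4 lower (11.8% each), led by the kinetochore motor Cenpe (1.30), cyclin B2 (Ccnb2, 0.91), the kinetochore subunit Spc25 (0.88) and the kinesin Kif2c (-0.77). Of 12 growth-arrest genes 2 were higher and 1 lower: Gas6 (4.64), Gas7 (1.54) and Gas2 (-2.67). Shares of 20.7% higher and 23.2% lower over all genes are the background for these counts.

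Against control vector alone, 4 upstream regulators were higher (Cdkn2a, Cdkn2b, Ccnd2 and Ccnd3) and 1 lower (Cdkn2c), 2 G2/M genes were higher (Cenpe and Ccnb2) and the same 2 growth-arrest genes were higher and 1 lower. Over all tested genes 10.2% were higher and 10% lower in this comparison, against 16.7% and 4.17% of the upstream regulators and 5.88% and 0% of the G2/M genes. The 16.7% includes Cdkn2a and Cdkn2b, which passed the signal minimum only through the null line, so it is not a result about the list.

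Reconstitution with Suv420h1-GFP (1 array against 2) asks whether the enzyme restores transcripts of the null line. It gave 0 calls (background 0% in each direction) and 0 members at an unadjusted p below 0.05. The median was 0.079, against 0.016 over all tested genes, with 27 estimates above 0 and 9 below. The smallest p belonged to E2f1 (0.37, SE 0.247), which read 377 reconstituted and 254 and 322 on the null arrays, to the ligase Lig1 (0.62, SE 0.451) and to the primase-associated subunit Pola2 (0.34, SE 0.318), each at an adjusted p of 1 in limma. Against the GFP array alone the median was 0.20, and against the untransduced array alone -0.052, so its sign depended on the null array used. Ccne2 and Rrm1, the 2 genes called between the lines, read 947 and 2832 on the reconstituted array, within or beside their null-array values (826 to 1271, and 2507 to 2801).

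Both genes under the signal minimum are given for completeness. Tyms, thymidylate synthase, read 158 on wild-type GFP, 122 on K278* and 66.1 on E824*, the same order as the tested genes. E2f2, another activator of S-phase genes, stayed between 10.7 on K278* and 82.1 on the untransduced null array and did not follow that order.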

How the data were processed

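The authors deposited linear probe-set intensity made with MAS5, which the submitters' processing notes name without a version. The sources used here do not state a scaling target. With 2% trimmed at both ends, every array had a mean of 500. Of 45101 probe sets, 64 controls were left out. Genes were named from 34945 probe sets with 1 symbol in the platform annotation; 932 had several symbols and 9160 none.

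Signals were taken as log2(signal + 25), so differences of dim genes are understated. Probe sets with a mean signal of at least 100 over the 9 arrays (19090) were fitted in limma 3.58.1 (R 4.3.3) with an intensity trend, using 5 group means (4 residual degrees of freedom) or 2 line means (7). Two-sided p-values were adjusted by Benjamini-Hochberg over all tested probe sets, with a threshold of 0.05. Counts and background shares use 1 probe set per gene, that of highest mean signal. Any member could be named by role; those with full values were, per comparison, those that passed or the 3 of smallest p; for GFP and LacZ the 6 largest and 3 smallest differences; and up to 4 passing genes per related list. The members and lists were chosen with earlier results of these data known. The procedure was tested on simulated data. The number of arrays limits the precision.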

Additional observations from a re-analysis of the deposited data

How the results depend on the processing

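The alternatives were offsets of 5 and 100, a signal minimum of 200 or none, fits without the intensity trend or on the compared groups alone, quantile normalization, the mean over the probe sets of a gene, and each array left out. Another, chosen after seeing the data and included in the tally, left out wild-type GFP and K278* together. Of the results recomputed in this way, 255 kept their call, their count within 1.5 times or their value within 1 SD of the spread between arrays, 19 moved beyond that and 12 lost a call. No called result changed sign, but 4 medians over the members, which have no call, did with an array left out: full-length PREX2 against control vector (-0.29, 0.092 without wild-type GFP), reconstituted against null (0.079, -0.052 without null GFP), truncated against full-length PREX2 (-0.057, 0.10 without E824*) and the lines (-0.10, 0.04 without wild-type GFP). That of the null line against control vector went from -0.38 to -0.012 without wild-type GFP. The SD used as the limit was 0.423, wider than each of these shifts, so these medians were counted as kept. A count of 0 that stayed 0 was counted as kept too. The number kept is therefore not a measure of stable direction. No paired analysis was possible because the labels carry no replicate numbers. The count of members higher in the null line over all 9 arrays, 1 as reported, was 0, as Ccne2 lost its call, with no filter, with quantile normalization, with no intensity trend and with the mean over probe sets, and 0 to 3 with an array left out; the count lower was 0 to 2. The 3 without wild-type GFP were Ccne2, Mcm4 and Rrm2, and the 2 lower without E824* were Rrm1 and Rfc5. Against control vector, members called lower numbered 0 to 4 with an array left out. The median for truncated PREX2 against control vector ran from -0.81 to -0.014, set by LacZ and GFP. Leaving out both wild-type GFP and K278* was chosen after seeing the data and raised the estimate of every member between the lines. With them left out, 9 members were called higher there, which does not test a difference between the lines. Cross-reading by probe sets and groups of 1 array limit all comparisons; the causes of these changes were not tested.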
